A study of Rattus norvegicus with 6 samples.

Results

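The miR-143/145 cluster was measured in the myocardium of rats with an old infarct and of sham-operated rats. All miRNAs on the array whose name starts with rno-miR-143 or rno-miR-145 were taken, whichever arm of the hairpin they come from, which gave 4 of 758 miRNAs: rno-miR-143-3p, rno-miR-143-5p, rno-miR-145-5p and rno-miR-145-3p. The rule itself used names only and no measured value, though it was set with earlier results of these data known. The control group held 3 male Sprague–Dawley rats in which the suture was passed but not tied. The model group held 3 male Sprague–Dawley rats in which the left anterior descending coronary artery was tied. Tissue of both groups was taken 4 weeks after surgery and hybridised on 1 single-colour Agilent array per rat, so that p-values measure the spread between rats. The labels place the model tissue in the infarct marginal zone and name no zone for the control tissue, so infarction and place of sampling cannot be told apart.

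miR-143 and miR-145 are cut from a shared primary transcript that is abundant in vascular smooth muscle, where serum response factor and myocardin drive it. They are known for holding smooth muscle cells in the contractile state, in part by repressing the transcription factors KLF4 and ELK1, and they fall when those cells dedifferentiate in injured vessels. Pericytes and fibroblasts also carry them. In the heart the vessel wall is their main known source, and cardiomyocytes, which make up most of the tissue mass, are known for miR-1 and miR-133 instead. In bulk tissue such as this, fewer cells of a type and less RNA per cell cannot be told apart. The arrays held no miRNA that marks smooth muscle independently of the cluster, so the smooth muscle label could not be checked here.

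The mature sequences are shown because the 4 arms carry different seeds, so that each arm has its own set of potential targets. The sequences are those of RefSeq on the rat build GRCr8, written 5′ to 3′, with the seed (bases 2 to 8) in capitals.
rno-miR-143-3p: uGAGAUGAagcacuguagcuca
rno-miR-143-5p: gGUGCAGUgcugcaucucugg
rno-miR-145-5p: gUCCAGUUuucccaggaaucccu
rno-miR-145-3p: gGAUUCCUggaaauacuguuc
All 4 lie on the minus strand of chromosome 18, miR-143-3p at 57371373 to 57371394, miR-143-5p at 57371408 to 57371428, miR-145-5p at 57370033 to 57370055 and miR-145-3p at 57369997 to 57370017. The hairpins are separated by 1278 bases, with 0 annotated genes wholly between them, and both lie within Carmn, a long non-coding RNA also called Mir143hg. Of the array's 758 miRNAs, 685 were matched to a RefSeq sequence by name, and 0 of these outside the cluster carried any of the 4 seeds.

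Each arm had 2 probes, and each probe 8 spots per array. A probe counted as detected where its signal was over 3 times its error, and a miRNA's signal was the sum of its detected probes, in arbitrary units. Between 206 and 222 miRNAs were detected per array, and 0 spots of the cluster's probes were saturated. Both probes of miR-143-3p and both of miR-145-5p were detected on all 6 arrays. The opposite arms lay at the detection limit or below it. The guide arms known from smooth muscle were therefore the measured ones, miR-143-3p from the 3′ side of its hairpin and miR-145-5p from the 5′ side of the other.

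**Figure D1:**
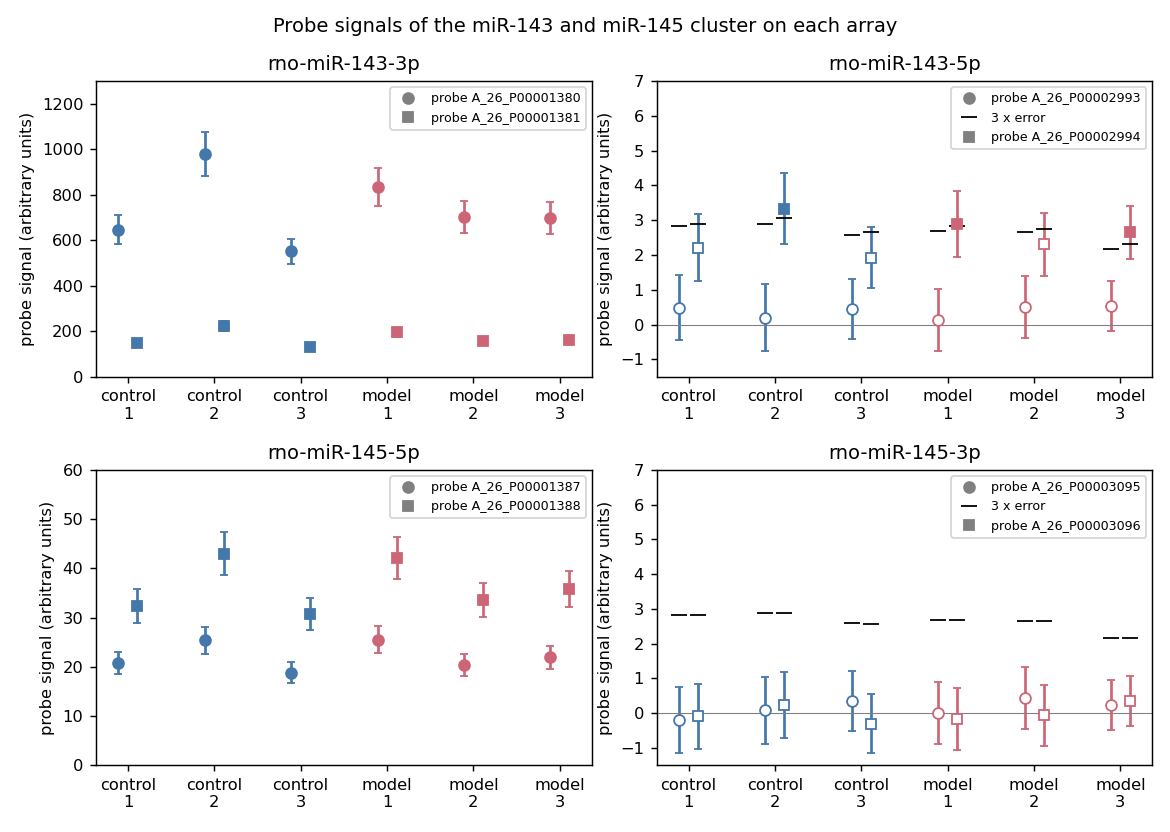
Background-subtracted signal (vertical axis, arbitrary units, linear) of the 2 probes of each arm on each of the 3 control (blue) and 3 model (red) arrays, with bars of 1 probe error as the scanner software gave it. Filled points were detected and open points were not, and the short lines in the right-hand panels mark 3 times the error. miR-143-3p and miR-145-5p stood far above that limit on every array, miR-143-5p crossed it with 1 probe on 3 arrays, and miR-145-3p stayed below it on all 6.

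The level of rno-miR-143-3p did not differ between the groups beyond the spread between rats. Its summed signal was 796, 1202 and 684 on control arrays 1, 2 and 3, and 1029, 861 and 861 on model arrays 1, 2 and 3. The model arrays lay inside the range of the control arrays, whose highest and lowest values were those of control rats 2 and 3. Control rats averaged 894 ± 272 (SD, n = 3) and model rats 917 ± 97.5 (SD, n = 3). Arrays were then made comparable by dividing each by its 75th percentile, taken over 198 miRNAs that were detected in every rat, and log2 was taken. On this scale miR-143-3p read 2.46, 2.67 and 2.23 in the control rats and 2.34, 2.16 and 2.35 in the model rats, and the groups overlapped. The log2 means were 2.45 ± 0.22 (SD, n = 3) and 2.28 ± 0.11 (SD, n = 3). The difference, model minus control, was -0.17 with an SE of 0.13 (limma with Benjamini-Hochberg adjustment over 214 miRNAs, adjusted p = 0.365). Its 95% interval ran from -0.50 to 0.16 on the log2 scale, that is from -29.0% to 11.7% of the control level, a range that holds a moderate fall and a small rise. An exact two-sided permutation test over the 6 rats gave p = 0.40, where the smallest p that 3 against 3 allows is 0.10.

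The level of rno-miR-145-5p did not differ beyond that spread either. Its summed signal was 53.2, 68.4 and 49.6 in control rats 1, 2 and 3, and 67.6, 53.9 and 57.7 in model rats 1, 2 and 3. Control rat 2 was again the highest and control rat 3 the lowest. Mean signals were 57.0 ± 9.98 (SD, n = 3) and 59.7 ± 7.07 (SD, n = 3). After scaling, the log2 values were -1.45, -1.47 and -1.55 in the control rats and -1.59, -1.84 and -1.55 in the model rats. The model group reached lower, through model rat 2, and the groups overlapped. The log2 means of -1.49 ± 0.056 (SD, n = 3) and -1.66 ± 0.16 (SD, n = 3) differed by -0.17, model minus control, with an SE of 0.10 (limma, adjusted p = 0.267). The 95% interval was -0.42 to 0.084, or -25.2% to 6.0% of the control level. The exact two-sided permutation test gave p = 0.20. A halving or a doubling of either miRNA, the 2-fold size the study screened for, lay outside both intervals.

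Over the whole array, 49 of 214 miRNAs tested passed an adjusted p of 0.05 in limma, which is 22.9%, 22 of them higher and 27 lower in the model group. Simulated arrays were given planted rises and falls equal in number and size. On them this scaling shifted unchanged miRNAs together and let more of them pass than the threshold allows. Centring each simulated array on its median deviation did not, so counts are also given after centring. There 46 of 214 passed, 30 higher and 16 lower. These calls were not balanced as the planted changes were, so the simulation cannot show that centring left no shift here. Neither of the cluster's tested miRNAs passed under either scaling. On the values scaled by the 75th percentile, 0 of 2 passed the adjusted threshold, 0 of 2 had an unadjusted p under 0.05 in limma, and 0 of 2 in the methods' t-test. The median log2 difference over the 214 miRNAs was -0.14, so the values of miR-143-3p and miR-145-5p lay close to that of the middle miRNA. Measured from -0.15, the median of those 198 miRNAs detected in every rat, the differences were -0.020 (95% interval -0.35 to 0.31) for miR-143-3p and -0.019 (95% interval -0.27 to 0.23) for miR-145-5p.

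**Figure D2:**
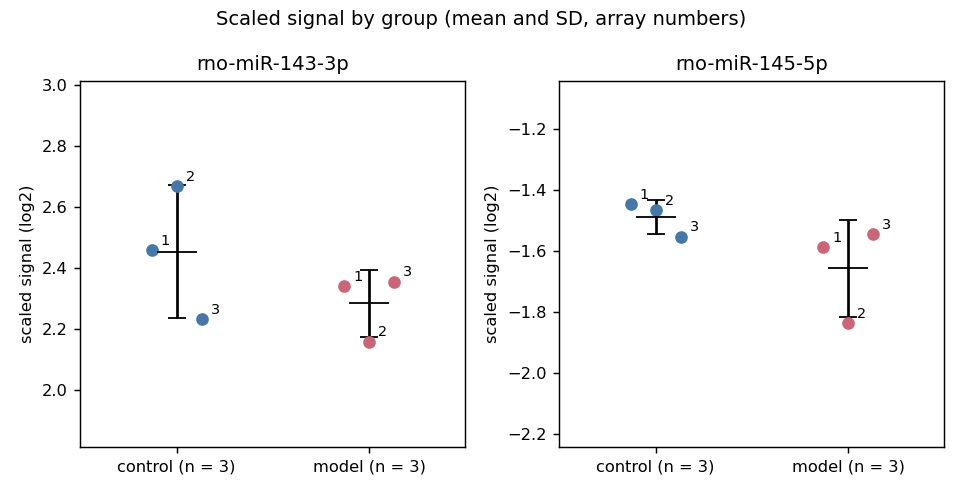
Scaled log2 signal (vertical axis) of miR-143-3p and miR-145-5p in each of the 3 control and 3 model rats (points, with replicate numbers), with the group mean and SD. The groups overlapped for both, around means of 2.45 and 2.28 for miR-143-3p and of -1.49 and -1.66 for miR-145-5p.

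The sign of this small difference followed the scaling. Without scaling, the log2 difference was 0.074 for either miRNA, and the median over the 198 miRNAs detected in every rat was then 0.092. With the deposited totals it was 0.17 for either, beside a median of 0.15 over those 198. Centred on the median deviation, it was -0.042 for miR-143-3p and -0.041 for miR-145-5p, beside a median of -0.023 over the 198. Under each of these the cluster lay close to the middle of the array. A single factor per array shifts all its miRNAs together, so without scaling or after centring this gap could hardly change. After quantile normalization, where it could, the gap to the median was -0.036 for miR-143-3p and -0.123 for miR-145-5p. For miR-143-3p the gap was -0.125 without control rat 3 and 0.095 without control rat 2. Row of the slide was uneven between groups, since the 3 control arrays and model array 1 lay in row 1 and model arrays 2 and 3 in row 2. With row as a block, which compares model array 1 with the controls, the log2 differences were -0.11 for miR-143-3p and -0.098 for miR-145-5p. Single rats moved the values by over 1.5 times. For miR-143-3p the log2 difference was -0.069 without control rat 2, -0.29 without control rat 3 and -0.11 without model rat 2, and for miR-145-5p it was -0.084 without model rat 2. In none of the alternatives listed in the plot of settings did either miRNA reach an adjusted p under 0.05 in limma or the methods' t-test.

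**Figure D3:**
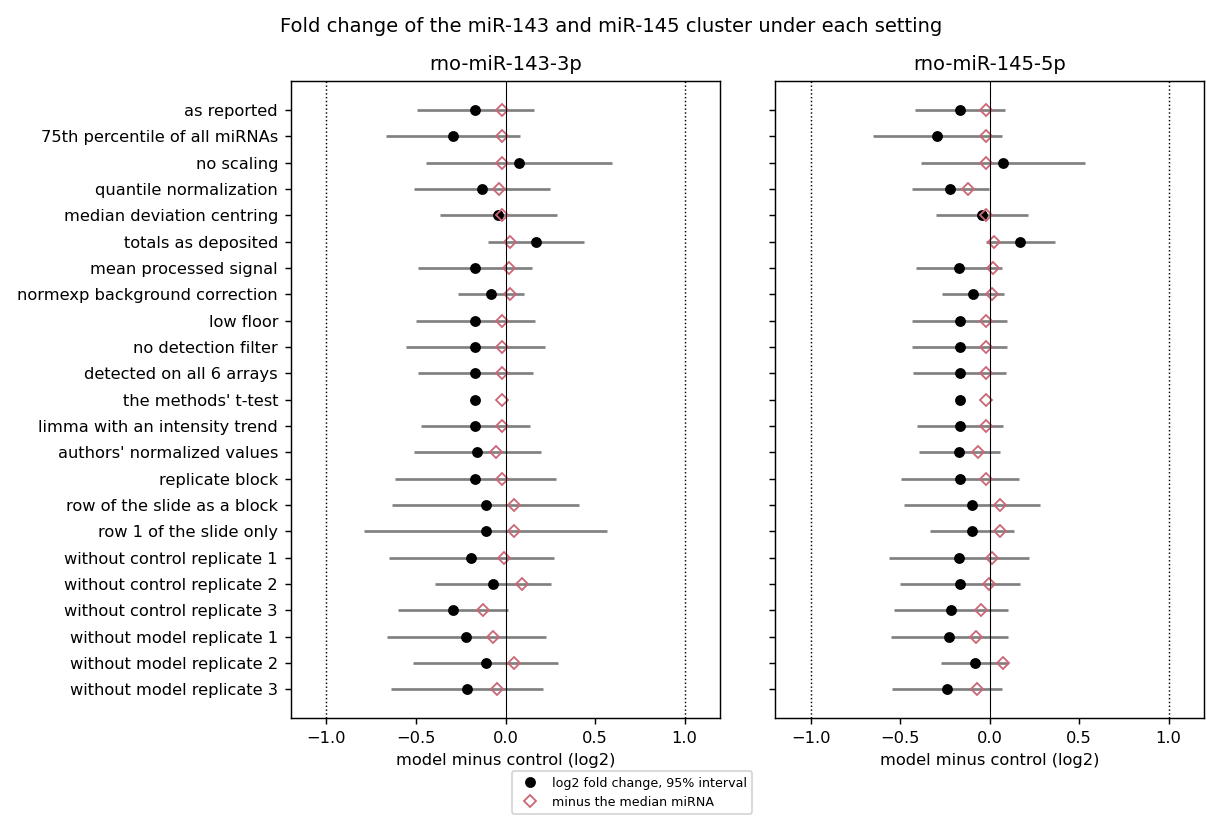
Log2 difference, model minus control (horizontal axis), of miR-143-3p and miR-145-5p as reported and under each alternative setting (vertical axis). Filled points carry 95% intervals where the fit gave one, and open diamonds show the same difference minus that of the median miRNA. Dotted lines mark a 2-fold change in either direction. The values lay between -0.29 and 0.17 for both miRNAs, above 0 only without scaling and with the deposited totals.

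The 8 spots of a probe had a coefficient of variation of 1.31% to 3.38% for miR-143-3p (median 1.95%) and of 3.43% to 11.1% for the dimmer miR-145-5p (median 5.61%). The 2 probes of each miRNA kept a near-constant ratio across the 6 arrays, 4.20 to 4.43 for miR-143-3p and 1.56 to 1.69 for miR-145-5p. The height of that ratio is a property of the probes and not of the tissue. Across all 6 arrays the scaled log2 values had an SD of 0.18 for miR-143-3p and 0.14 for miR-145-5p. Of the 198 miRNAs detected on all arrays, whose median SD was 0.24, 31.8% varied less than miR-143-3p and 19.7% less than miR-145-5p.

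The balance between the cluster's guide arms did not differ between the groups beyond the spread between rats. Taken within an array, where scaling cancels, the log2 ratio of miR-143-3p to miR-145-5p was 3.90, 4.14 and 3.79 in the control rats and 3.93, 4.00 and 3.90 in the model rats. The model rats lay inside the control range. The means were 3.94 ± 0.18 (SD, n = 3) and 3.94 ± 0.049 (SD, n = 3), with a difference of -0.00026 and an exact two-sided permutation p of 1. The height of the ratio reflects different probes and is no ratio of molecules, so only its change between arrays can be read. Control rat 2 had the highest ratio and control rat 3 the lowest.

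The opposite arms added little. One probe of miR-143-5p gave signals of 2.21, 3.33 and 1.92 in the control rats and 2.88, 2.30 and 2.65 in the model rats, and was detected in control rat 2, model rat 1 and model rat 3. Its signal was 2.17 to 3.43 times its error, so whether it counted as detected turned on small differences. The other probe of miR-143-5p, with signals of 0.123 to 0.539, was detected on 0 arrays. miR-145-3p, with probe signals of -0.297 to 0.446, was detected on 0 arrays, and its signal was at most 0.504 times its error. The lowest signal of any detected miRNA was 1.16 to 1.60 per array. No fold change is given for either arm, since neither was detected on every array of a group, and a difference between groups was not detectable at this signal.

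The total per miRNA that the scanner software wrote differed from this for 1 of the 4 arms. For miR-143-5p the deposited total was 1204.86 in control rat 2, 1032.38 in model rat 1 and 863.313 in model rat 3, and was listed at 0.1, the value for a miRNA that is not detected, in the other 3 rats. On each of the 3 arrays with a detected probe, the excess over the probe's own signal equalled the total of miR-143-3p within a relative tolerance of 0.0001. Over the 6 arrays 289 miRNA totals exceeded the sum of their own detected probes. Whether the excess matched another miRNA's total was checked only for the cluster. The totals of miR-143-3p and miR-145-5p carried no such excess, and that of miR-145-3p was listed at 0.1 in every rat. Read from the totals column, miR-143-5p would thus appear as bright as miR-143-3p in 3 rats and absent in 3, where its brighter probe read 1.92 to 3.33 over all 6.

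**Figure D4:**
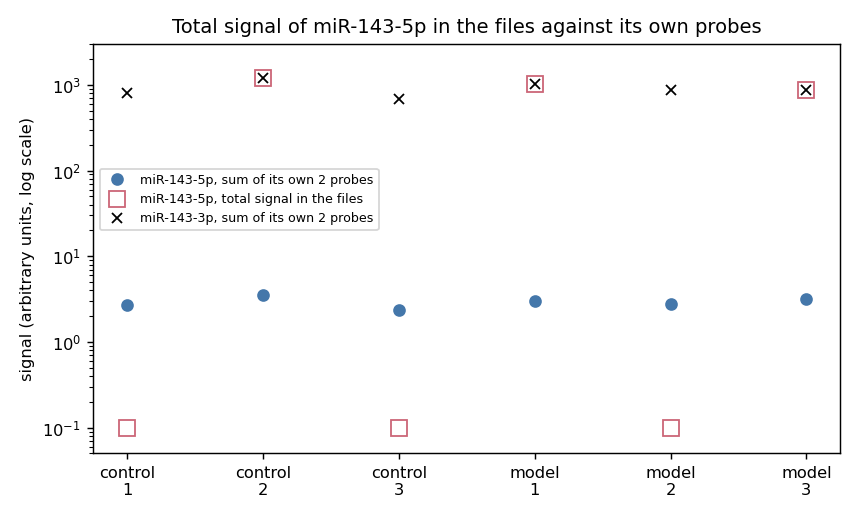
Signal of miR-143-5p on each array (vertical axis, logarithmic, arbitrary units) as the total written by the scanner software and as the sum of its own 2 probes, detected or not, with the sum of miR-143-3p for comparison. The software's total of miR-143-5p sat at that of miR-143-3p in control rat 2, model rat 1 and model rat 3 and at 0.1 in the other 3 rats.

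Other miRNAs tied to the state of smooth muscle were counted beside the cluster. Of 6 miRNAs listed as contractile or smooth muscle associated, a list that includes miR-143-3p and miR-145-5p, 0 were higher in model rats and 2 lower (limma), with a median log2 difference of -0.18 beside -0.14 over all miRNAs tested. The 2 that fell were miR-1-3p at -0.76 and miR-133a-3p at -0.68, both better known as cardiomyocyte miRNAs. Each passed only under some of the 7 scalings and signals tried, miR-1-3p under 3 and miR-133a-3p under 4. Quantile normalization could not pass miR-1-3p, since it held the same rank on every array and so received equal values. After centring on the median deviation 1 of the 6 was higher, miR-195-5p, and 1 lower, miR-1-3p. With the 75th-percentile scaling miR-195-5p, of the miR-15 family, read 0.51 (adjusted p = 0.0626 in limma) and did not pass. It passed under 2 of the 7, after centring and with the deposited totals. miR-10a-5p, which lies in a Hox gene cluster, read -0.19 and passed under none. Of 8 miRNAs tied to the synthetic, proliferating state, 4 were higher and 0 lower, with a median of 0.63. They were miR-21-5p at 1.1, which is abundant in activated fibroblasts, miR-221-3p at 1.07, which represses the cell cycle inhibitor p27, miR-31a-5p at 3.57, and miR-222-3p from the same transcript as miR-221-3p. miR-222-3p was not detected on any control array and stood at least 2.82-fold higher in model rats. For that bound each control array was given the higher of its lowest detected miRNA signal and the signal of miR-222-3p itself. These 4 passed the test under each of the 7 scalings and signals tried. They belong to the miRNAs that the study itself singled out on these arrays, so their direction is no independent evidence. The other 4 of the 8 did not pass when scaled over the 198 miRNAs detected in every rat. They read -0.42 for miR-146a-5p, -0.17 for miR-29b-3p, -0.082 for miR-26a-5p and 0.19 for miR-24-3p. After centring 5 of the 8 were higher, miR-24-3p among them, and 0 lower. miR-24-3p also passed with the deposited totals. With the 75th percentile of all miRNAs 4 were higher and 1 lower, miR-146a-5p.

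Levels of miRNAs of other cell types moved between the groups. Of 5 tested cardiomyocyte miRNAs, 3 were lower in model rats and 0 higher, and their summed scaled signal, over the list of 6, ranged from 114 to 138 in the control rats and from 60.9 to 85.1 in the model rats. miR-208b-3p, encoded in a slow myosin gene, was detected on 0 arrays. Both arms of the endothelial miR-126a, the miRNA of the Egfl7 gene, were lower, at -0.49 (adjusted p = 0.0154 in limma) for miR-126a-3p and -0.59 (adjusted p = 0.0132) for miR-126a-5p, with summed scaled signals of 8.16 to 9.17 in control and 5.98 to 6.66 in model rats. Without scaling, and with the deposited totals, 0 of these cardiomyocyte and endothelial miRNAs passed the test, and their median differences stayed below 0. After centring, 2 of the 5 cardiomyocyte miRNAs and both arms of miR-126a were lower. Of 7 fibroblast and matrix miRNAs, 4 were higher and 0 lower. The higher ones were led by miR-199a-5p at 1.95 and miR-214-3p at 1.84, which share a primary transcript, and by miR-199a-3p at 1.40. The remaining higher one was miR-21-5p, which was also counted in the synthetic list, so the lists are not separate. All 4 belong to the miRNAs that the study itself singled out on these arrays. Their direction is therefore no independent evidence. The other 3, the collagen-repressing miR-29 family, read -0.13 for miR-29a-3p, -0.17 for miR-29b-3p and -0.36 for miR-29c-3p and did not pass the test, though miR-29c-3p was lower under 3 of the 7 scalings and signals. The summed scaled signal of all 7 fibroblast and matrix miRNAs was 17.9 to 22.5 in control and 24.1 to 29.2 in model rats. Leukocyte miRNAs showed 1 higher and 1 lower of 5 tested, with a median log2 difference of -0.073, and miR-142-5p was detected on 0 arrays. Their sums were 2.85 to 3.47 in control and 2.03 to 2.51 in model rats. The brightest of them in every rat was miR-150-5p, so it weighed most in these sums. The higher one, miR-155-5p at 1.07, is also among the miRNAs that the study singled out on these arrays. It passed under 6 of the 7 scalings and signals. It turned to -1.92 only with the deposited totals, 289 of which exceeded the sum of their own detected probes. Whether the totals of miR-155-5p were among these was not examined. The lower one, miR-150-5p at -0.60, passed under 3 of the 7. Red blood cell miRNAs showed 0 higher and 1 lower of 2 tested, with sums of 1.79 to 2.10 in control and 1.13 to 1.43 in model rats and miR-144-3p detected on 0 arrays. The lower one, miR-486 at -0.68, passed under 4 of the 7. The part that this makeup of the tissue had in the level of the cluster was not tested.

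Set against the endothelial and the cardiomyocyte miRNAs of the same array, each of which lists had a median below 0, the cluster stood higher in every model rat than in any control rat. The log2 ratio of miR-143-3p to the mean of the 2 endothelial miRNAs was 1.97, 2.17 and 1.94 in the control rats and 2.47, 2.33 and 2.39 in the model rats. That is a rise of 0.37 from 2.03 ± 0.13 (SD, n = 3) to 2.40 ± 0.066 (SD, n = 3). The same ratio of miR-145-5p went from -1.91 ± 0.060 (SD, n = 3) to -1.54 ± 0.10 (SD, n = 3), also by 0.37. Set against the mean of 4 cardiomyocyte miRNAs detected on all arrays (miR-1-3p, miR-133a-3p, miR-133b-3p and miR-499-5p), miR-143-3p read -0.51, -0.60 and -0.71 in the control rats and -0.12, 0.10 and -0.16 in the model rats. The difference was 0.55, as it was for miR-145-5p, which went from -4.55 ± 0.17 (SD, n = 3) to -4.00 ± 0.093 (SD, n = 3). Each of these 4 ratios gave an exact two-sided permutation p of 0.10, the smallest possible, and an adjusted p of 0.125 over the 5 ratios tested. For miR-143-3p the groups overlapped after quantile normalization against either set (exact permutation p = 0.4 endothelial and 0.3 cardiomyocyte) and after normexp against the endothelial pair (exact permutation p = 0.3). Of the cardiomyocyte miRNAs, miR-1-3p and miR-133b-3p held the same rank on every array. Quantile normalization gives them equal values on all arrays, so their fall is lost from that reference. Ratios to the fibroblast miRNAs were not computed. The pattern was common among the detected miRNAs. Every model rat stood above every control rat in 54.1% of miRNAs set against the endothelial pair (106 of 196 detected in every rat) and in 66.5% of those set against the cardiomyocyte miRNAs (129 of 194), so the cluster shared this order with most miRNAs compared. In row 1 of the slide alone the 4 differences were 0.44 and 0.45 against the endothelial and 0.49 and 0.50 against the cardiomyocyte miRNAs.

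**Figure D5:**
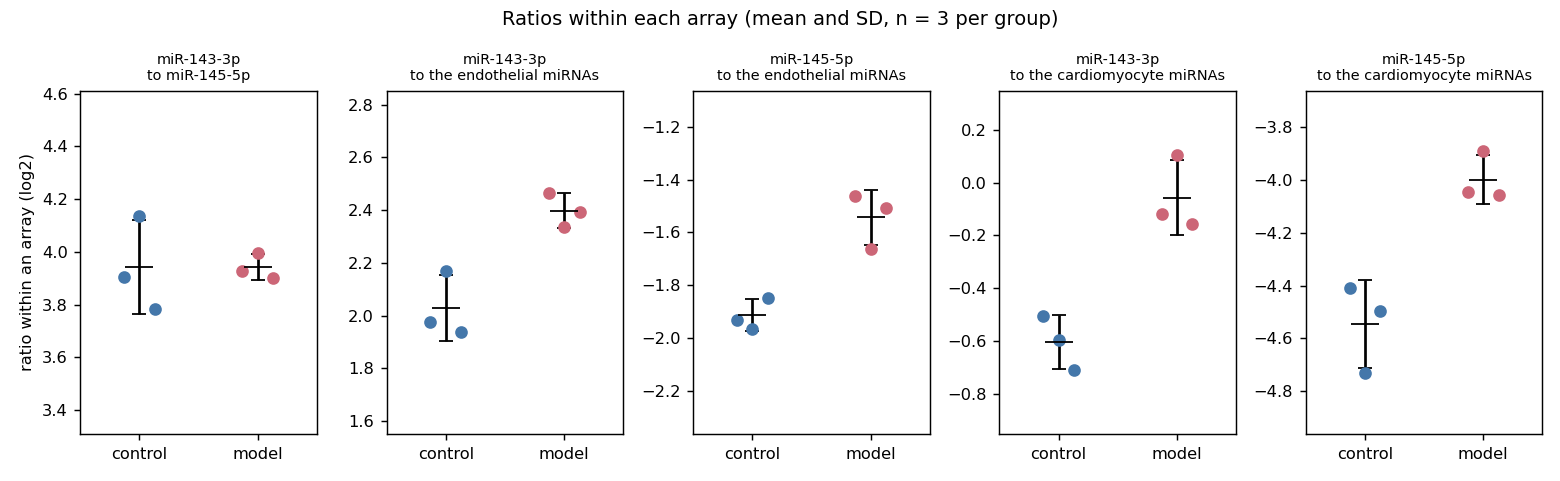
Within-array log2 ratios (vertical axis) of miR-143-3p and miR-145-5p to each other, to the 2 endothelial miRNAs and to the 4 cardiomyocyte miRNAs in each of the 3 control (blue) and 3 model (red) rats (points), with the group mean and SD. The ratio of the 2 miRNAs to each other overlapped between the groups around 3.94, and the other 4 ratios lay higher in every model rat, by 0.37 against endothelial and 0.55 against cardiomyocyte miRNAs.

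As a description of which miRNAs varied over the 6 arrays most like the cluster, Pearson's r of the scaled log2 values was ranked among 196 other miRNAs detected on all arrays. The arrays share their scaling and fall into 2 groups, so r holds no test here. The 5 most like miR-143-3p were miR-352 (0.947), miR-499-5p (0.922), miR-29c-3p (0.879), miR-29c-5p (0.879) and miR-186-5p (0.875). The 5 most like miR-145-5p were miR-345-5p (0.966), miR-30d-5p (0.955), miR-30c-5p (0.946), miR-30c-1-3p (0.941) and miR-30e-5p (0.940), so that 4 of them were miR-30 family members. miR-143-3p and miR-145-5p had an r of 0.761 with each other, and neither was among the 5 closest of the other.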

How the data were processed

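Total RNA of 6 rat hearts was labelled and hybridised by the authors to Agilent rat miRNA arrays. Per the labels, the images were read with Agilent Feature Extraction 10.7.1.1. The authors deposited background-subtracted intensity values per spot, probe and miRNA, not scaled between arrays, and a table of normalized log2 values, whose method is not given in the sources used here and which served as an alternative. Each array held 758 miRNAs, 1806 probes and 12128 miRNA spots.

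Groups and replicate numbers were those of the labels. Probe signals over 3 times their error were summed per miRNA, divided by the array's 75th percentile over the 198 miRNAs detected on all arrays, floored at -6.50 (log2) and tested with limma 3.58.1 (R 4.3.3, Benjamini-Hochberg adjustment), model against control without covariates, over the 214 miRNAs that every array of a group detected. Within-array ratios were tested with exact permutation (scipy 1.17.1). The fit was tested on simulated data with planted changes, as many up as down and of equal size. It recovered them, with false calls near the threshold under the true array factors and under median deviation centring, and well above it under the 75th-percentile scaling and after quantile normalization. The percentile was kept as planned, with the centred counts beside it. The miRNAs named are the cluster's, the listed ones counted, and the 5 most like each of miR-143-3p and miR-145-5p. The members, lists and tests were chosen with earlier results of these data known. The number of arrays limits the precision.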

Additional observations from a re-analysis of the deposited data

How the results depend on the processing

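Over 22 alternatives each, the log2 differences of miR-143-3p and miR-145-5p were -0.29 to 0.17, with adjusted p-values of 0.155 to 0.901 and 0.149 to 0.901, and 20 of 22 were below 0. Without scaling they were 0.074 and 0.074, and with the deposited totals 0.17 and 0.17. Leaving out 1 rat gave -0.29 to -0.069 and -0.24 to -0.084. The smallest unadjusted p was that of miR-145-5p after quantile normalization (limma's unadjusted value 0.0474, adjusted p = 0.149). The count of 49 became 66 with the 75th percentile of all miRNAs (19 higher, 47 lower), 36 with the deposited totals (35 higher, 1 lower), 38 after quantile normalization (22 higher, 16 lower), 46 after median centring (30 higher, 16 lower), 37 with the authors' values (23 higher, 14 lower), 19 without scaling (19 higher, 0 lower), 9 without the detection filter, 26 with the methods' t-test, 29 with the slide row as a block, 11 in row 1 alone and 14 to 39 without 1 rat. The cause of these changes was not tested.

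The ratio of miR-143-3p to miR-145-5p, at -0.00026, changed sign to 0.087 after quantile normalization, 0.0011 with the mean processed signal, 0.011 with normexp and 0.012 with the authors' values, and ran from -0.078 to 0.096 without 1 rat. The ratios to endothelial miRNAs stayed above 0 over 13 alternatives, at 0.23 to 0.44 for miR-143-3p and 0.18 to 0.45 for miR-145-5p, as did those to cardiomyocyte miRNAs, at 0.23 to 0.60 and 0.14 to 0.61. For miR-143-3p the groups overlapped after quantile normalization against either set and after normexp against the endothelial pair.

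Rats with the same replicate number shared only that number. Their deviations from the group means had correlations of -0.26, 0.0011 and 0.16. With the replicate block the log2 difference of miR-143-3p was -0.17 (adjusted p = 0.467 in limma), that of miR-145-5p was -0.17 (adjusted p = 0.352 in limma), and the count was 16. The alternatives could not be run for miR-143-5p and miR-145-3p, which had too few detected arrays for a fold change.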
